A study of Mus musculus with 10 samples.

Results

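The genes described here are 62 long noncoding RNA (lncRNA) genes that carry a name of their own and were well covered in the failing mouse ventricle. They were chosen by raw counts: each is of gene type lncRNA in GENCODE M39, has a symbol that is neither Gm with a number nor a Rik clone name, is not Mhrt, and reached at least 50 raw counts in every one of the 10 mice. Of the 57185 genes with a count value, 11416 were lncRNAs and 739 of these were named, so the 62 are the small share of the named class that was covered in every mouse. The requirement was set in each mouse, which removes a lncRNA that is low in 1 genotype, so the 62 hold no lncRNA that was nearly off in either group. Of the other named lncRNAs, 252 had no count in any mouse.

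A lncRNA is transcribed and usually spliced like a messenger RNA but encodes no protein. Some stay in the nucleus and organise it, as Malat1 does in nuclear speckles and Neat1 in paraspeckles. Others act on the neighbouring gene in cis, as the imprinted Airn and Kcnq1ot1 do, or serve mainly as the precursor from which snoRNAs or microRNAs are cut. In heart development Bvht (Braveheart) and Hand2os1 (upperhand) are known, the first for commitment to the cardiovascular lineage and the second for lying head to head with the transcription factor gene Hand2.

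The heart tissue came from 5 MLPKO and 5 cRADΔ/Δ-MLPKO mice, all male. Mice of both groups lack muscle LIM protein (MLP, gene Csrp3), a Z-disc protein whose loss causes dilated cardiomyopathy, and both carry a floxed Rrad gene (RADfl/fl). RAD is a small GTPase that restrains the L-type calcium channel, and it was deleted in cardiomyocytes of the cRADΔ/Δ-MLPKO mice by MerCreMer under the MYH6 promoter. A single intraperitoneal tamoxifen dose of 100 mg/kg was given to every mouse at 10 weeks (2.5 months), and tissue was taken 1 month later, with an age label of 16 weeks. That label is later than 1 month after 10 weeks, so the exact age at harvest is uncertain. The MLPKO mice lack the Cre transgene, so the effect of Cre and that of RAD deletion cannot be told apart. RNA was poly(A) selected from the apical ventricle, with 1 mouse per library, so an RNA without a regular poly(A) tail, such as Malat1 with its encoded A-rich end, is counted only as far as that selection captured it. Mature microRNAs and snoRNAs were not measured.

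The libraries held 33457406 to 49965101 counted reads, and the 62 lncRNAs together took 0.166% to 0.204% of them. The mouse MLPKO 2 stood apart on the first principal component (score -55.7, which axis held 35.3% of the variance), so the values it moves most are also given without it. Between 73.7% and 80.3% of the counts from 1 to 20 were even numbers in each library. Whether both reads of a pair were counted is not given in the sources used here, and its part in these even counts was not tested. Had they been, a raw count, the minimum of 50 included, would stand for fewer RNA fragments than its number. As a check of the labels, the count of Rrad was lower in cRADΔ/Δ-MLPKO by 0.38 on the log2 scale (adjusted p = 0.29 in edgeR) with the groups overlapping, and Csrp3 read at 28551 to 134804 normalized counts (log2 fold change -1.08, edgeR adjusted p = 0.0666). Both are sums over the whole gene and were not split by exon, so these counts do not test the deletions. Cardiomyocyte marker genes summed to 82053 to 92918 CPM (read counts scaled to a fixed library size) in MLPKO and to 67841 to 82987 CPM in cRADΔ/Δ-MLPKO. The 8 skeletal muscle genes listed summed to 1.16 to 2.99 CPM in MLPKO and to 1.38 to 2.27 CPM in cRADΔ/Δ-MLPKO. Of these genes, only Myh4 was at 0. In bulk tissue, fewer cells of a type and less RNA per cell cannot be told apart.

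At the low end of the rule lay Sgms1os1 with a minimum of 51 counts in a mouse, Gpr137b-ps with 52, and Hdnr and Zbtb11os1 with 57 each. Just outside lay Etohd2 and Mccc1os with 49 each and Erdr1x with 48. Setting the minimum at 25 counts would give 83 genes, and at 100 counts it would give 42.

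Of the 62, 10 have a microRNA gene inside their span on the same strand (20 microRNA genes in all). There are 8 with snoRNA genes there, counting the small Cajal body RNA gene in Snhg20 as one. The mature microRNA sequences are shown because they tell which hosts could feed the same target set: microRNAs with the same seed (bases 2 to 8, in capitals) pair with the same target sites. For 16 hosted microRNA genes matched to RefSeq by name (build GRCm38.p6; those of Mir133a-1hg were not read here), the table gave 29 mature sequences with 27 seeds. Among these, 2 seeds occurred in more than 1 host, both in Mir99ahg and Mir100hg. These 2 hosts also hold a let-7 gene each (Mirlet7c-1 and Mirlet7a-2), and the 5p arm of Mirlet7a-2 is not in the table, so the count of shared seeds leaves it out.
miR-99a-5p (Mir99ahg): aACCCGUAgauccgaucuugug
miR-100-5p (Mir100hg): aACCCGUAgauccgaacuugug
miR-125b-5p (both hosts): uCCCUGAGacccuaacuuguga
let-7c-5p (Mir99ahg): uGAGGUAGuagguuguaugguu
miR-22-3p (Mir22hg): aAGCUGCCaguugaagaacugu
miR-15a-5p (Dleu2): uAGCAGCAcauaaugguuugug
miR-16-5p (Dleu2): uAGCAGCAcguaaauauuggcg
miR-370-3p (Rian): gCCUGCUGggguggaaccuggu
miR-341-3p (Rian): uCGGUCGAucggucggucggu
miR-770-5p (Meg3): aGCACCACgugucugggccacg
miR-675-5p (H19): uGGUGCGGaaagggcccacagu

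Start site windows of the 3 lncRNAs that differed between the genotypes are shown next (RefSeq, GRCm38.p6, 250 bases before to 50 after the start). The windows were matched by symbol. Their RefSeq starts were not compared with the starts of the counted GENCODE genes and may differ from them. A set of short motifs were searched on both strands and are in capitals where found: AGATAA, bound by GATA factors, CATTCC, the core of the M-CAT element bound by TEAD factors, and TATAAA, the TATA box. The core of the MEF2 site was searched as well, and TATAAA can overlap it.
AW011738, chr4:156203034-156203333, plus strand: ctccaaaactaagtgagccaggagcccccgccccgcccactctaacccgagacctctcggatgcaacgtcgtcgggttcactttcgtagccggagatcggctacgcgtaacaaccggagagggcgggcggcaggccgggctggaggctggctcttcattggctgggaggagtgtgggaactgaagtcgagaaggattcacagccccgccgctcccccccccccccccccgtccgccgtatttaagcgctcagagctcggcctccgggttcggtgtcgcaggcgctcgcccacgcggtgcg
Hand2os1, chr8:57320810-57321109, minus strand: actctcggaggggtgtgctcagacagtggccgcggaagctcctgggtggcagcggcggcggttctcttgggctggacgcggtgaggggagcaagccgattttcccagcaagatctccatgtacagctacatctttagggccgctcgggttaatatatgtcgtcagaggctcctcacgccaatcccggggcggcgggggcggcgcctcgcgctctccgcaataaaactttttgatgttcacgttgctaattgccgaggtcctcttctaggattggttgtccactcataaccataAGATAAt
Plet1os, chr9:50504756-50505055, minus strand: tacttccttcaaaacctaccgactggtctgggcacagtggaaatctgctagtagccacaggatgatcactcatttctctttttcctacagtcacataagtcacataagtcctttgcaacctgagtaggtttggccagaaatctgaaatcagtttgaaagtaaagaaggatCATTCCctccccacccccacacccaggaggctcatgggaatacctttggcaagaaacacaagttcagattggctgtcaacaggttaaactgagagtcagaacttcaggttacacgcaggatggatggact

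The AW011738 window held 32 CpG dinucleotides and none of the motifs. The Hand2os1 window held 23 CpG and AGATAA at bases 294 to 299. The Plet1os window held only 2 CpG and CATTCC at bases 171 to 176. Over the 45 windows that matched 42 of the lncRNAs, AGATAA was in 13.3%, CATTCC in 20%, the MEF2 core in 6.67% and TATAAA in 13.3%. Over all 32851 windows the shares were 11.2%, 14.7%, 3.69% and 13.6%. The median number of CpG was 15 in the windows of the lncRNAs and 7 over all windows.

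Levels per length were led by a few RNAs. Malat1 stood at 53.8 ± 12.2 CPM per kb of exon (SD, n = 10 mice), Norad, which binds PUMILIO proteins, at 50.6 ± 2.11, and Oip5os1 (Cyrano), which directs decay of miR-7, at 36.8 ± 4.26. Malat1 and Norad did not differ beyond their spread. The next were Actc1dt, which starts beside the cardiac actin gene Actc1, at 22.5 ± 4.83 CPM per kb, the imprinted Peg13 at 10.2 ± 0.716 and Neat1 at 7.17 ± 1.34. In all, 10 lncRNAs were above 5 CPM per kb and 32 were below 1, down to Kcnq1ot1 at 0.0479 ± 0.0141, with a median of 0.961. Exon length was taken over all annotated isoforms (1387 to 93852 bases), so a long gene with many isoforms reads low on this scale. In total counts the order differed: Oip5os1, Malat1, Norad and Neat1 together gave 67.1% to 72.9% of the counts of the 62 in each mouse.

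**Figure D1:**
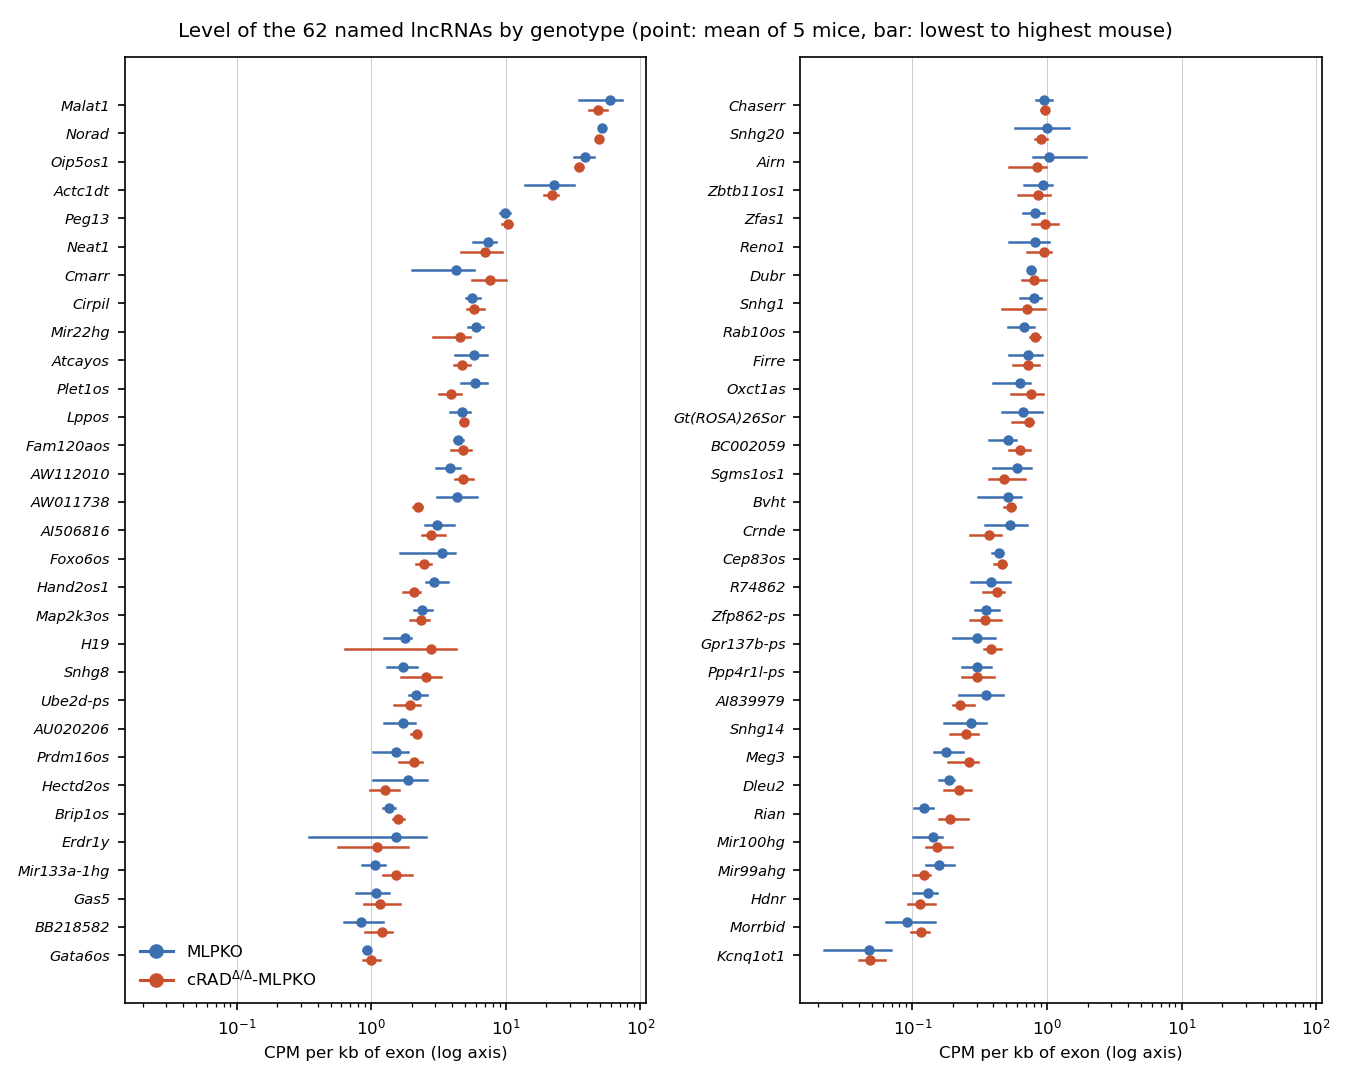
Level of the 62 lncRNAs in CPM per kb of exon (log axis), ordered by mean. Each point is the mean of 5 mice and each bar runs from the lowest to the highest mouse, in blue for MLPKO and red for cRADΔ/Δ-MLPKO. The levels run from 53.8 for Malat1 to 0.0479 for Kcnq1ot1, and the bars of the genotypes overlap for all but 4 lncRNAs.

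Between the genotypes, 3 of the 62 lncRNAs had an edgeR adjusted p under 0.05 (4.84%), against 2.74% of the 13452 genes tested and 3.08% of the 11083 tested genes of any type that also reached 50 counts in every mouse. All 3 (AW011738, Hand2os1 and Plet1os) were lower in cRADΔ/Δ-MLPKO, and 1.8% of all genes tested were called lower. DESeq2, the tool of the study, called 7 of the 62 (11.3%) against 9.65% of all genes: the same 3 plus Rian, Cmarr, Meg3 and Mir133a-1hg, which were higher. At an unadjusted edgeR p under 0.05 stood 20 lncRNAs (32.3%), 9 lower and 11 higher, against 21.6% of all genes. The genotypes did not overlap for AW011738, Hand2os1, Rian and Norad (4 of 62, 6.45%), against 6.62% of all genes. The shares called by each tool and the share without overlap lie near those backgrounds. The median log2 fold change (cRADΔ/Δ-MLPKO against MLPKO) was 0.03 over the 62 and 0.01 over all genes, with 29 negative and 33 positive values, and no call was made by either tool for 55 of the 62.

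**Figure D2:**
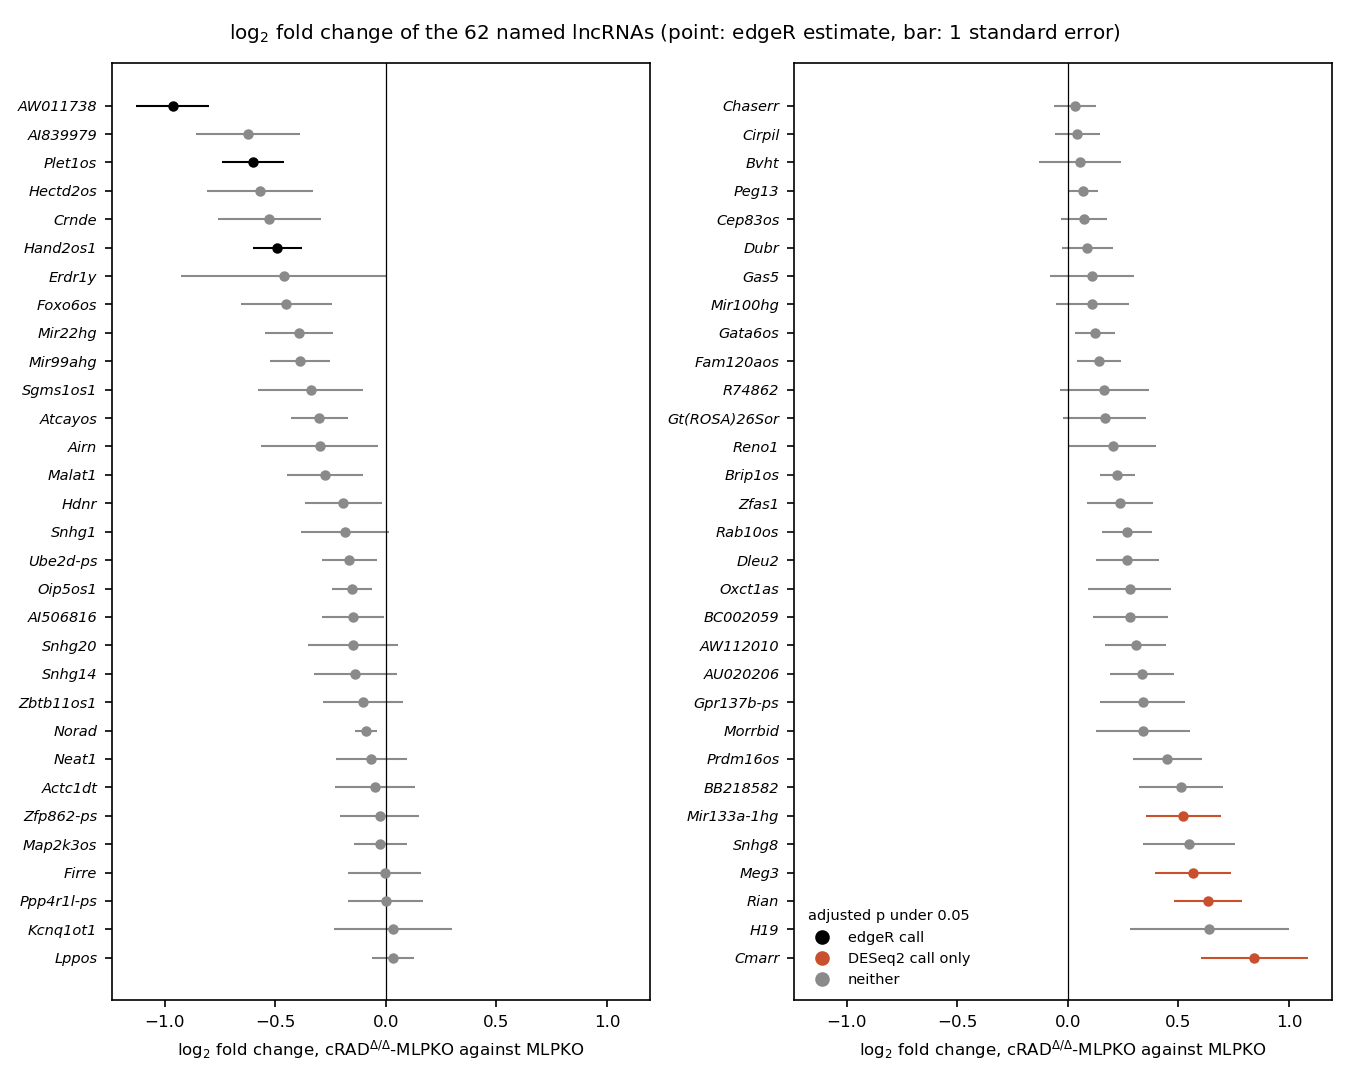
Log2 fold change of each lncRNA in cRADΔ/Δ-MLPKO against MLPKO (point: edgeR estimate, bar: 1 standard error, n = 5 mice per genotype), in black for the 3 that edgeR called, in red for the 4 that DESeq2 alone called and in grey for the others. The estimates run from -0.96 for AW011738 to 0.84 for Cmarr.

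AW011738 (ENSMUSG00000078349, chromosome 4, bases 156287656 to 156295023 of GRCm39, plus strand, 2 exon blocks) showed the largest difference of the 62. The 5 MLPKO mice had 897, 1077, 654, 711 and 1296 normalized counts (raw counts scaled to the mean TMM library size) and the 5 cRADΔ/Δ-MLPKO mice 484, 492, 435, 457 and 509. Every cRADΔ/Δ-MLPKO mouse was below every MLPKO mouse, and the cRADΔ/Δ-MLPKO values lay close together while the MLPKO values spread. The means were 927 ± 265 and 475 ± 29.3 (SD, n = 5 each), so that cRADΔ/Δ-MLPKO stood at 51.3% of MLPKO. The log2 fold change was -0.96 with a standard error of 0.17 (edgeR adjusted p = 0.0196, DESeq2 adjusted p = 5.67e-06). Without MLPKO 2 it was -0.90 (edgeR adjusted p = 0.0257), and the call was lost only without cRADΔ/Δ-MLPKO 5 (edgeR adjusted p = 0.0571). None of its exon bases is shared with another gene on either strand.

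Hand2os1 (ENSMUSG00000100510, chromosome 8, bases 57734152 to 57782056, minus strand, 12 exon blocks) is annotated opposite Hand2, the gene of a bHLH factor needed for the right ventricle, and shares 3.22% of its exon bases with the other strand. Its normalized counts were 1706, 2222, 1622, 1652 and 1520.2 in MLPKO and 1382, 1218, 1033, 1365 and 1208 in cRADΔ/Δ-MLPKO. The groups did not overlap, and MLPKO 2 was far above the other MLPKO mice. The mean fell from 1744 ± 275 to 1241 ± 141 (SD, n = 5 each; 71.2% of MLPKO), a log2 fold change of -0.49 ± 0.11 (SE; edgeR adjusted p = 0.0397). Without MLPKO 2 it was -0.39 and still called (edgeR adjusted p = 0.0366). Hand2 itself stood at -0.38 ± 0.14 (SE; edgeR adjusted p = 0.144), and Hdnr (Handsdown), a lncRNA downstream of Hand2, at -0.19 (edgeR adjusted p = 0.566).

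Plet1os (ENSMUSG00000101304, chromosome 9, bases 50398632 to 50432747, minus strand, 8 exon blocks) lies opposite the placenta-expressed gene Plet1. The MLPKO mice had 967, 806, 1254, 839 and 1253 normalized counts and the cRADΔ/Δ-MLPKO mice 806, 556, 659, 680.3 and 682. The groups met at 806, the lowest MLPKO and the highest cRADΔ/Δ-MLPKO value, and the other 4 cRADΔ/Δ-MLPKO mice were below all MLPKO mice. The means were 1024 ± 218 and 677 ± 89.0 (SD, n = 5 each; 66.1%), with a log2 fold change of -0.60 ± 0.14 (SE; edgeR adjusted p = 0.0475). Of its exon bases, 30.8% are shared with the other strand, and without knowledge of the strand setting reads of the pair cannot be told apart. Plet1 had 29.9 ± 8.57 normalized counts in MLPKO and 21.6 ± 6.23 in cRADΔ/Δ-MLPKO, far below Plet1os. The calls for Hand2os1 and Plet1os each held in only 3 of the 10 fits that left out 1 mouse, against 9 of 10 for AW011738.

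**Figure D3:**
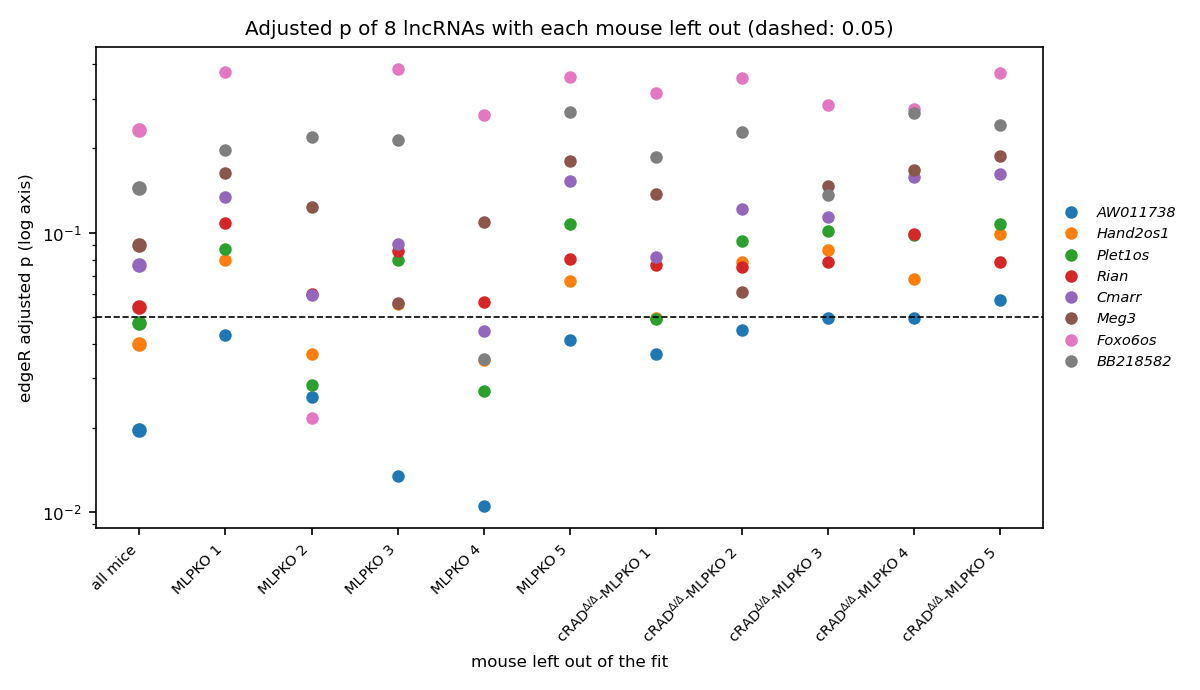
EdgeR adjusted p (log axis) of 8 lncRNAs from the fit to 10 mice and from the 10 fits that omit a mouse; the dashed line is 0.05. AW011738 stays under the line except without cRADΔ/Δ-MLPKO 5, while Foxo6os is under it only without MLPKO 2 (0.0217) and BB218582 and Cmarr only without MLPKO 4 (0.0353 and 0.0442).

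On the higher side stood Rian and Meg3, maternally expressed lncRNAs of the imprinted Dlk1-Dio3 domain. Rian (chromosome 12, bases 109570242 to 109628150) had 145, 176, 137, 159 and 188 normalized counts in MLPKO and 345, 228, 218, 249 and 209 in cRADΔ/Δ-MLPKO. No value overlapped, and cRADΔ/Δ-MLPKO 1 was far above the rest of its group. The log2 fold change was 0.63 ± 0.16 (SE; means 161 ± 21.0 and 249.7 ± 55.3, SD), which missed the threshold in edgeR (adjusted p = 0.054) and passed it in DESeq2 (adjusted p = 0.00507). Meg3 (chromosome 12, bases 109506877 to 109538165) had 129, 140.2, 189, 138 and 115 in MLPKO and 223, 146, 208, 234 and 244 in cRADΔ/Δ-MLPKO. Only the MLPKO 3 and cRADΔ/Δ-MLPKO 2 values crossed between the groups. Its log2 fold change was 0.56 ± 0.17 (SE; edgeR adjusted p = 0.09, DESeq2 adjusted p = 0.0292). Both lie on the plus strand of the same domain. Mirg, another lncRNA of that domain, had at most 8 raw counts in a mouse and was not among the 62.

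Cmarr, a lncRNA named for cardiomyocyte maturation (chromosome 15, bases 103042498 to 103049103), had 323, 149, 384, 432 and 306 normalized counts in MLPKO and 423, 558, 476, 755 and 652 in cRADΔ/Δ-MLPKO. The lowest value was that of MLPKO 2, and the groups overlapped by 1 mouse on each side. At 179.6% of MLPKO this was the highest ratio of the 62, with a log2 fold change of 0.84 ± 0.24 (SE; edgeR adjusted p = 0.0765, DESeq2 adjusted p = 0.0111). Without MLPKO 2 it was 0.67 (edgeR adjusted p = 0.0598). Mir133a-1hg, the host of the muscle microRNA genes Mir133a-1 and Mir1a-2, had 84.1, 76.0, 109, 111 and 88.5 in MLPKO and 134, 124, 108, 129 and 179 in cRADΔ/Δ-MLPKO. Of the cRADΔ/Δ-MLPKO mice, 1 lay within the MLPKO range. Its log2 fold change was 0.52 ± 0.17 (SE; edgeR adjusted p = 0.108, DESeq2 adjusted p = 0.0495).

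**Figure D4:**
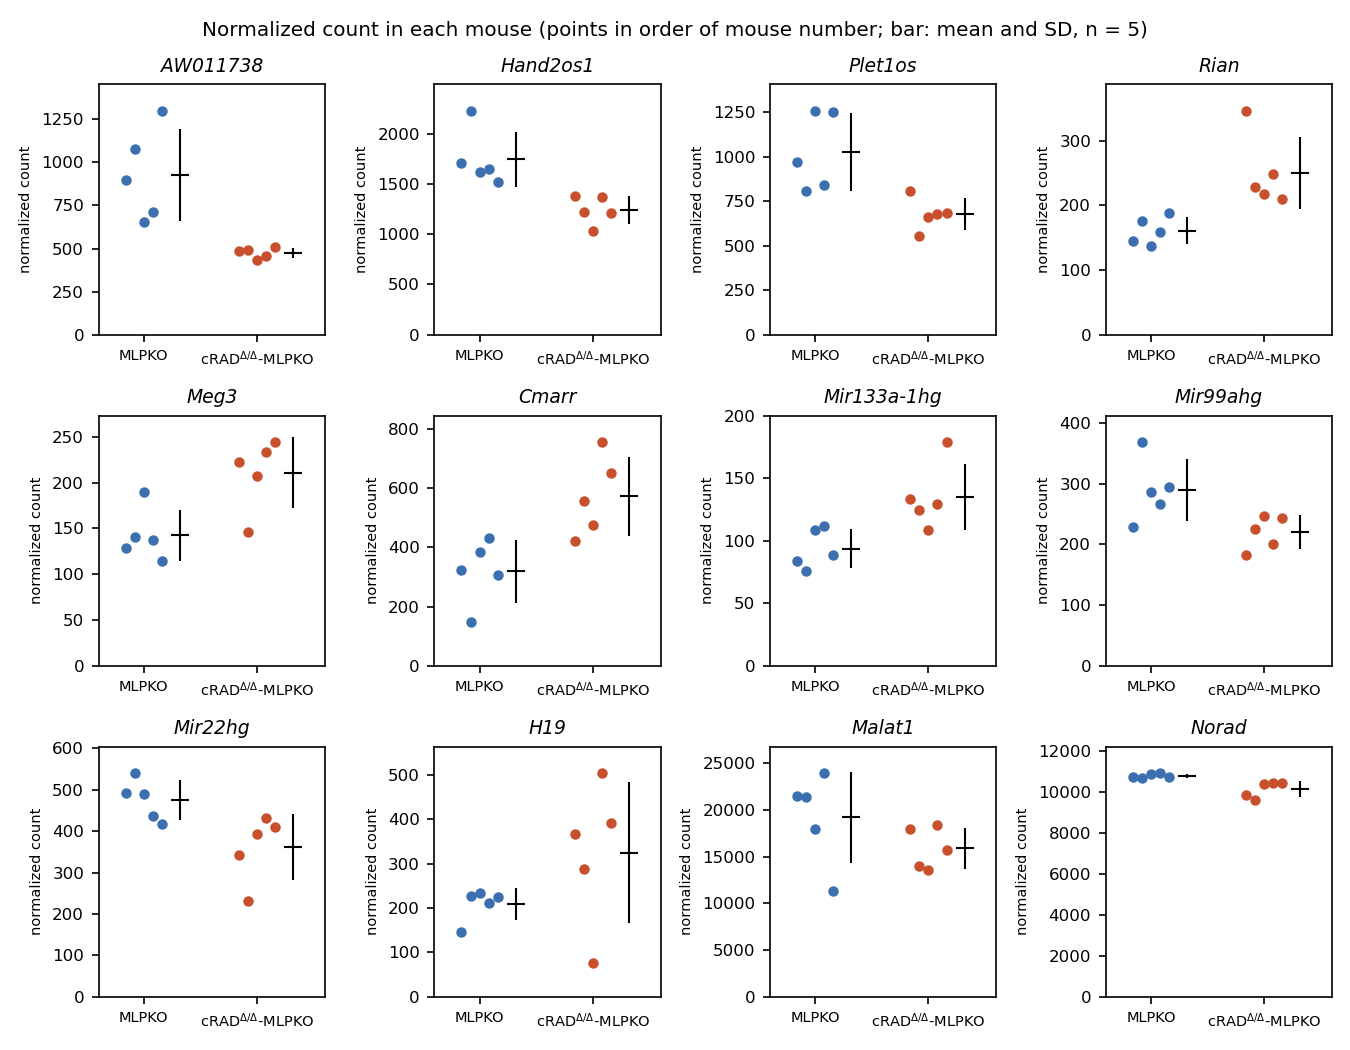
Normalized counts in each mouse for 12 lncRNAs, MLPKO in blue and cRADΔ/Δ-MLPKO in red; the bars are mean and SD (n = 5). AW011738 and Hand2os1 separate downwards and Rian upwards, while Norad separates on a narrow scale (10680.0 to 10906 against 9586 to 10449.8).

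Marker genes of other cell types moved with the genotypes as well. All 8 endothelial markers had positive log2 fold changes, 1 of them called by edgeR (Tek, 0.32, adjusted p = 0.0196) and 3 by DESeq2. At an unadjusted edgeR p under 0.05 stood 7 of the 8, against 21.6% of all genes tested. These markers summed to 843 to 973 CPM in MLPKO against 1003 to 1143 CPM in cRADΔ/Δ-MLPKO. Smooth muscle markers summed to 496 to 599 CPM against 643 to 853 CPM, with Acta2 (1.24) and Rgs5 (0.44) called higher of 5 tested. Cnn1 of the same list stood at -2.17 (664 ± 889 normalized counts in MLPKO and 148 ± 73.0 in cRADΔ/Δ-MLPKO, SD, edgeR adjusted p = 0.102), Smtn at 0.24 and Myh11 at 0.01. The macrophage markers summed to 123 to 168 CPM against 146 to 255 CPM with 0 of 9 called by edgeR (8 at an unadjusted p under 0.05) and 3 by DESeq2, and the fibroblast markers to 1168 to 1752 CPM against 979 to 1774 CPM with Dpt called higher. Tnnt2 (-0.57) was the 1 cardiomyocyte marker of 10 called by edgeR, with 5 at an unadjusted p under 0.05 and 2 called lower by DESeq2. The log2 fold changes of these 10 were negative for 7 and positive for 3 (Slc8a1 0.38, Atp2a2 0.15 and Tnni3 0.13). Myh6 had the highest counts of the list, with 1508750 ± 116007 normalized counts in MLPKO and 1235480 ± 134622 in cRADΔ/Δ-MLPKO (SD). The part of these shifts in the lncRNA differences was not tested. The lymphocyte, skeletal muscle, atrial and red blood cell lists had 0 genes called by edgeR or DESeq2, and 1 atrial gene at an unadjusted edgeR p under 0.05. That gene was Nppa, with a log2 fold change of -2.05 (edgeR adjusted p = 0.125, DESeq2 adjusted p = 0.0699). Its normalized counts were 45558 ± 41422 in MLPKO and 10997 ± 5870 in cRADΔ/Δ-MLPKO (SD).

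Of the 10 microRNA hosts, edgeR called 0 (6 at an unadjusted p under 0.05), and DESeq2 called Rian, Meg3 and Mir133a-1hg higher, with 7 positive and 3 negative log2 fold changes and a median of 0.30. For comparison, 21.6% of all genes tested had an unadjusted edgeR p under 0.05, and DESeq2 called 9.65%. The hosts are few and were not tested as a set. The hosts that share seeds had estimates of opposite sign, neither past the test. Mir99ahg, source of miR-99a, let-7c and miR-125b, had 229, 368, 286, 266 and 295 normalized counts in MLPKO and 183, 226, 247, 201 and 244 in cRADΔ/Δ-MLPKO, a log2 fold change of -0.39 (edgeR adjusted p = 0.127). Mir100hg, source of miR-100, let-7a and a further miR-125b gene, had 266, 267, 197, 251 and 164 against 317, 204, 266, 220.0 and 229, a log2 fold change of 0.11 (edgeR adjusted p = 0.751). The genotypes overlapped for both hosts.

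Mir22hg, host of the muscle-rich miR-22, had 492, 539.8, 489, 435 and 418 normalized counts in MLPKO and 343, 230.4, 394, 431 and 409.5 in cRADΔ/Δ-MLPKO (log2 fold change -0.39, edgeR adjusted p = 0.159). Only cRADΔ/Δ-MLPKO 4 reached into the MLPKO range. Dleu2, host of miR-15a and miR-16, stood at 0.27 (edgeR adjusted p = 0.306), AU020206 at 0.34 (0.206) and Snhg20 at -0.15 (0.724). H19, host of miR-675, had 146, 228, 234, 212 and 224 in MLPKO but 366, 288, 75.6, 504 and 391 in cRADΔ/Δ-MLPKO, and its log2 fold change of 0.64 came with a standard error of 0.36 (edgeR adjusted p = 0.33). Here 4 of the cRADΔ/Δ-MLPKO mice were above every MLPKO mouse and 1 was below them all.

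The 8 snoRNA hosts carried 208 (Snhg14), 13 (Rian), 10 (Gas5), 8 (Snhg1), 3 (Zfas1) and 1 (Snhg8, AI506816 and Snhg20 each) annotated small nucleolar RNA genes. The gene in Snhg20 is annotated as a small Cajal body RNA (scaRNA) and was counted with them. The number for Gas5 includes overlapping entries of Snord80. Such hosts are spliced to release the snoRNA from the intron, and several end in decay by the nonsense-mediated pathway. Gas5, the growth-arrest transcript, stood at 0.11 ± 0.19 (SE), Snhg1 at -0.18 ± 0.20, Zfas1 at 0.24 ± 0.15 and Snhg14, the antisense transcript over Ube3a, at -0.14 ± 0.19 on the log2 scale, with edgeR adjusted p between 0.388 and 0.796. Snhg8 had 84.1, 94.3, 118, 75.0 and 125 normalized counts in MLPKO and 173, 188, 135, 94.8 and 137 in cRADΔ/Δ-MLPKO, with 1 mouse of the latter inside the MLPKO range. Its log2 fold change of 0.55 ± 0.21 (SE) did not pass (edgeR adjusted p = 0.154). Of the 8, edgeR called 0, and 2 stood at an unadjusted p under 0.05, against 21.6% of all genes tested. DESeq2 called Rian, against 9.65% of all genes tested.

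Of the 7 imprinted lncRNAs edgeR called 0 (2 at an unadjusted p under 0.05), and DESeq2 called Meg3 and Rian. The shares over all genes tested were 21.6% at that p and 9.65% by DESeq2. Peg13, expressed from the paternal allele inside Trappc9, had 1941 ± 138 and 2035 ± 139 normalized counts (log2 fold change 0.07, edgeR adjusted p = 0.597). Kcnq1ot1, which silences its neighbours on the paternal chromosome, stood at 0.03 ± 0.27 (SE). Airn, which silences Igf2r in cis, had 354, 845, 369.6, 345 and 348 in MLPKO and 432, 383, 229, 372 and 414 in cRADΔ/Δ-MLPKO. MLPKO 2 was far above all other mice, and the log2 fold change was -0.30 ± 0.27 (SE) with it and 0.05 without it. Among 12 tested imprinted coding genes edgeR called 0 (5 at an unadjusted p under 0.05), while DESeq2 called Igf2r (-0.21, DESeq2 adjusted p = 0.00108) and Zdbf2 (-1.22, 0.0346) lower and Mest (0.39, 0.0454) higher. These counts stand beside the same 21.6% and 9.65% over all genes tested.

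The 4 lncRNAs listed for nuclear architecture or genome stability, Malat1, Neat1, Norad and Firre, had small negative log2 fold changes with a median of -0.08, and 0 were called by edgeR, by DESeq2 or at an unadjusted p under 0.05. The sign for Firre, and without 1 mouse that for Neat1, turned under other settings. Malat1 had 21466, 21371, 17968, 23906 and 11342 normalized counts in MLPKO and 17899, 13965, 13591, 18326 and 15702 in cRADΔ/Δ-MLPKO. MLPKO 5 was the lowest of all mice, and the log2 fold change of -0.27 ± 0.17 (SE) gave an edgeR adjusted p of 0.388. Norad had 10729, 10680.0, 10860.2, 10906 and 10715 in MLPKO and 9833, 9586, 10369.5, 10449.8 and 10411 in cRADΔ/Δ-MLPKO. Although these values did not overlap, the mean was 94.0% of MLPKO and the log2 fold change was -0.09 ± 0.05 (SE; edgeR adjusted p = 0.306, DESeq2 adjusted p = 0.143). Neat1 stood at -0.07 ± 0.16 and Firre, an X-linked lncRNA, at -0.01 ± 0.16. The X inactivation lncRNAs Jpx (32 to 83 raw counts), Ftx (22 to 59) and Xist (3 to 25) were below the minimum in these male mice.

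The genes of proteins that work with these RNAs gave no call by edgeR. It called 0 of 15 paraspeckle proteins, 0 of 12 nuclear speckle proteins, 0 of 8 core proteins of the snoRNP, 0 of 10 factors of nonsense-mediated decay and 0 of 12 microRNA processing factors. At an unadjusted edgeR p under 0.05 stood 1 paraspeckle and 1 nuclear speckle gene, and 0 in the other lists. Over all genes tested the share at that p was 21.6%. DESeq2 called 1 gene, the chromatin remodeller Smarca4, which is also a paraspeckle component (-0.18, edgeR adjusted p = 0.0639, DESeq2 adjusted p = 0.00669). The list medians lay between -0.06 and 0.02 on the log2 scale, beside 0.01 over all genes.

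Of the 62, 30 overlapped a coding gene on the other strand and 3 (Prdm16os, Foxo6os and Actc1dt) started within 2000 bases of one and pointed away. EdgeR called Hand2os1 and Plet1os of the 30 and 0 of the 3. DESeq2 called 2 of the 30 lower (Hand2os1 and Plet1os) and 2 higher (Rian and Mir133a-1hg), and 0 of the 3. At an unadjusted edgeR p under 0.05 stood 6 of the 30 lower and 5 higher, and 1 of the 3 (Prdm16os). Over all genes tested, edgeR called 2.74% and DESeq2 9.65%, and 21.6% had an unadjusted edgeR p under 0.05. Actc1dt had 2654, 3413, 1497, 1943 and 2752 normalized counts in MLPKO and 2435, 2598, 2317, 2046 and 2450.5 in cRADΔ/Δ-MLPKO, with a log2 fold change of -0.05 ± 0.18 (SE). The MLPKO mice spread around the cRADΔ/Δ-MLPKO values on both sides, and 56.8% of its exon bases are shared with other annotated genes of the same strand. Prdm16os, beside the gene of the transcription factor Prdm16, stood at 0.45 ± 0.16 (edgeR adjusted p = 0.122), and Foxo6os at -0.45 ± 0.21 (edgeR adjusted p = 0.233). Foxo6os had 157 normalized counts in MLPKO 2 and 324 to 399.8 in the other MLPKO mice, against 205 to 264 in cRADΔ/Δ-MLPKO. Without MLPKO 2, the log2 fold change of Foxo6os was -0.62 (edgeR adjusted p = 0.0217).

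The 33 lncRNAs of both kinds faced 43 coding genes, of which 42 were tested. EdgeR called 1 of them, Map2k3, a kinase upstream of p38, at -0.30 (adjusted p = 0.0314), while Map2k3os stood at -0.03 (adjusted p = 0.932). DESeq2 called 4 coding genes, all lower: Map2k3, Igf2r, Nmrk2 and Thumpd3. Both counts out of 42 lie near the shares called over all genes tested (2.74% by edgeR, 9.65% by DESeq2). Nmrk2, a nicotinamide riboside kinase of muscle opposite Atcayos, stood at -1.28 (edgeR adjusted p = 0.069), and Atcayos at -0.30 (0.201). Without MLPKO 2, Atcayos stood at -0.40 (edgeR adjusted p = 0.0598). Crnde stood at -0.53 and its neighbour Irx5 at -0.33, and Gata6os at 0.12 with Gata6, a cardiac transcription factor gene, at -0.17. In 25 of the 42 pairs both values had the same sign, and in none were both called. Exon bases were shared with the other strand for 48 of the 62, over 20% for 16, and up to 49.9% for Snhg20.

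**Figure D5:**
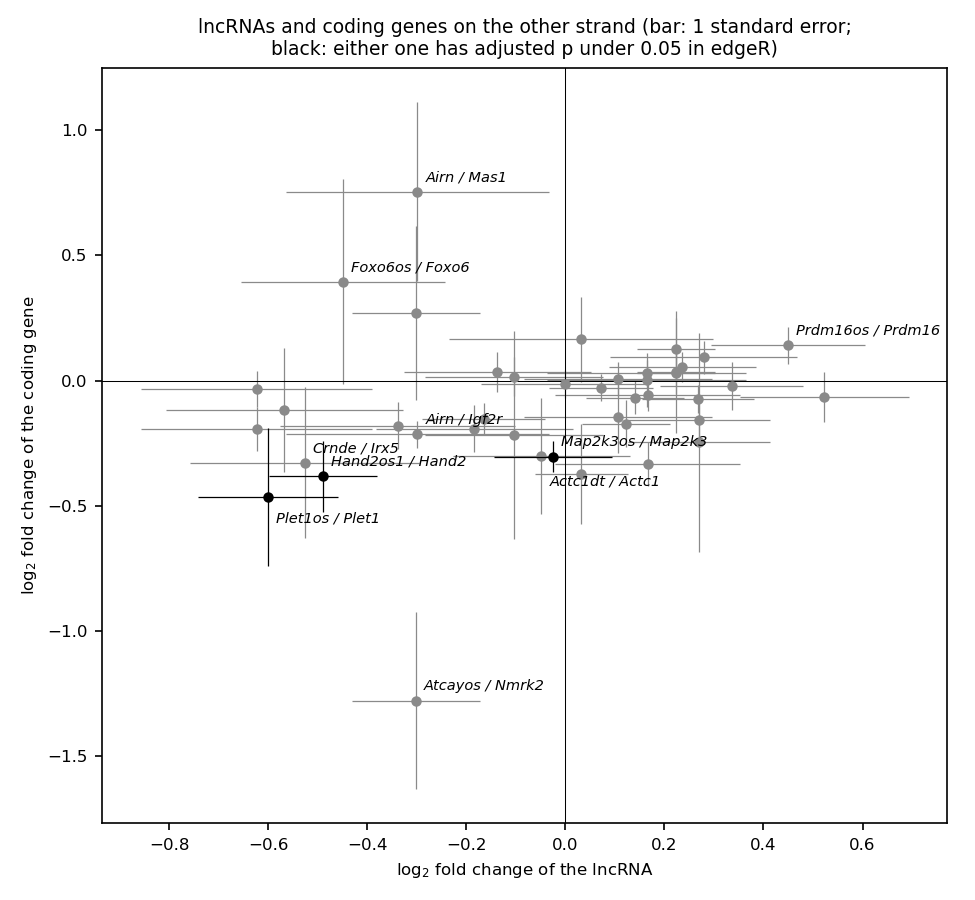
Log2 fold change of the lncRNA (horizontal) against that of the coding gene on the other strand or divergent from it (vertical) for 42 pairs; bars are 1 standard error and black marks the 3 pairs with either gene called by edgeR. Hand2os1, Plet1os and Map2k3 are called, each without its partner.

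Other antisense lncRNAs with a difference at unadjusted p under 0.05 were Brip1os (0.22, edgeR adjusted p = 0.126), Rab10os (0.27, 0.198), AI839979 (-0.62, 0.149), Hectd2os (-0.57, 0.197), AU020206, Atcayos and Crnde, and none passed after adjustment. AI839979 had 183, 246, 117, 121 and 247 normalized counts in MLPKO and 151, 105, 128, 106 and 104 in cRADΔ/Δ-MLPKO. Hectd2os had 1756, 2154, 853, 1019 and 1931 in MLPKO and 1337, 1051, 809.6, 919.6 and 1085 in cRADΔ/Δ-MLPKO. In both genes MLPKO 1, 2 and 5 were above every cRADΔ/Δ-MLPKO mouse and MLPKO 3 and 4 lay within their range. The remaining antisense lncRNAs (among them Lppos, Cep83os, Fam120aos, Oxct1as, Sgms1os1, Zbtb11os1, Gt(ROSA)26Sor, R74862, Ube2d-ps and Ppp4r1l-ps) lay between -0.34 and 0.28.

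The 16 lncRNAs that were neither hosts nor antisense, divergent or listed included AW011738 and Cmarr. BB218582 stood at 0.51 (edgeR adjusted p = 0.144) and AW112010, a transcript induced in immune cells, at 0.31 (0.229). Bvht had 111, 136, 148, 125 and 70.2 normalized counts in MLPKO and 132, 117, 123, 129.8 and 110.3 in cRADΔ/Δ-MLPKO, with a log2 fold change of 0.06 ± 0.19 (SE). Oip5os1 stood at -0.15 ± 0.09 (SE; edgeR adjusted p = 0.35) and Chaserr, which restrains its neighbour Chd2, at 0.03 ± 0.09, with Chd2 at 0.13. Morrbid, known from myeloid cells, was at 0.34 (0.387), Gpr137b-ps at 0.34 (0.337), BC002059 at 0.28 (0.364), Reno1 at 0.20, Dubr at 0.09, Cirpil at 0.04 and Zfp862-ps at -0.03. Erdr1y had 86.6 to 641 normalized counts across the mice. Its raw counts rose and fell with those of its near-identical copy Erdr1x in the same mice (Erdr1y 786 and Erdr1x 598 in MLPKO 3, 95 and 48 in MLPKO 5). Whether reads were split between the copies was not tested, and the value is uncertain.

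Leaving out MLPKO 2 moved some further estimates by a large factor, and none of the lncRNAs named next was called by edgeR with or without that mouse. Away from 0 went Morrbid, from 0.34 to 0.57 (edgeR adjusted p = 0.0762 without it), Gt(ROSA)26Sor, from 0.17 to 0.31, R74862, from 0.16 to 0.31, Snhg20, from -0.15 to -0.29, Zbtb11os1, from -0.10 to -0.19, Mir100hg, from 0.11 to 0.17, and Bvht, from 0.06 to 0.11. Toward 0 went Oxct1as, from 0.28 to 0.16, Reno1, from 0.20 to 0.08, AI506816, from -0.15 to -0.02, and Snhg14, from -0.14 to -0.03.

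The spread between mice of a genotype was wide for many of the lncRNAs. Their median coefficient of variation was 19.6% in MLPKO and 15.9% in cRADΔ/Δ-MLPKO, against 12.9% and 10.4% over all genes tested and 10.9% and 8.88% over genes with the same count minimum. It was larger in MLPKO for 39 of the 62. The range went from 0.916% for Norad to 58.2% for Erdr1y in MLPKO. A log2 fold change of 0.5 or more in size was reached by 12 lncRNAs (19.4%), against 9.49% of all genes tested and 5.03% of those with the minimum, and of these 12 edgeR called AW011738 and Plet1os only.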

How the data were processed

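The authors deposited 1 table of raw counts per gene for 10 mice. The submitters' processing notes name FastQC, STAR, featureCounts and GRCm39; the strand, read pair and overlap settings are not given in the sources used here. Of 60676 rows, 3491 had no value, and GENCODE M39 placed 56629 of the other 57185. No column was left unassigned.

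The filter followed the study's methods: a gene needed more than 10 counts in 6 or more of the 10 mice and a name other than Gm or Rik. The main test was glmQLFTest of edgeR 4.0.16 (R 4.3.3, quasi-likelihood) after TMM scaling, with Benjamini-Hochberg adjustment over all 13452 genes. DESeq2 1.42.0 and limma 3.58.1 (voom) were alternatives, as were RLE and upper quartile factors, no filter on low counts, filterByExpr, a replicate block, robust dispersion, Gm and Rik names kept in, leaving out each mouse, and minimum counts of 25 and 100. Tested on simulated data for this comparison (13452 genes, 200 changed), edgeR found 60% of those changed and 6.25% of what it called had not been changed. For DESeq2 these shares were 68.5% and 21.7%. Of the 100 genes changed by 0.5 on the log2 scale edgeR found 46, and of the 100 changed by 1 it found 74.

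Genes named with values are the lncRNAs under the threshold, the 10 of smallest p, the 10 of largest fold change, the 5 of highest level per kb and those of the role lists; others were named after their values were seen. The lncRNAs and lists were chosen with earlier results of these data known. Mouse numbers recur in both genotypes but belong to different animals, so the main test used no pairing. P-values set the difference between the genotypes against the spread between the 5 mice of each genotype. In edgeR the spread of a gene is moderated with that of the other genes tested. Sequences came from RefSeq tables (GRCm38.p6), matched by symbol, with chromosome 18 left out. Tables and figures used Python 3.11.15, numpy 2.4.6, pandas 2.3.3 and matplotlib 3.10.9.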

Additional observations from a re-analysis of the deposited data

Results flagged for a closer look

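In 124 groups of 5 mice (62 lncRNAs in 2 genotypes), 6 (4.84%) held 1 mouse whose gap to the nearest other mouse, divided by the range of the group, was over the critical value for 5 mice. Chance flags about 1 group in 20, so this number is near what chance gives.

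Gt(ROSA)26Sor, the transcript of the Rosa26 locus, had 109.5 normalized counts in cRADΔ/Δ-MLPKO 4 and 156 to 158 in the other 4 mice (gap over range 0.955). Airn had 845 in MLPKO 2 and 345 to 369.6 in the others (0.951). H19 had 146 in MLPKO 1 and 212 to 234 in the others (0.744). Hand2os1 had 2222 in MLPKO 2 and 1520.2 to 1706 in the others (0.736), and its call held without that mouse. Oxct1as, opposite the ketone body enzyme gene Oxct1, had 121 in MLPKO 2 and 198 to 229 in the others (0.716). Rian had 345 in cRADΔ/Δ-MLPKO 1 and 209 to 249 in the others (0.712). Of the 6, 3 fall on MLPKO 2, the mouse that stood apart over all genes.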

How the results depend on the processing

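DESeq2 called 1298 genes and 7 of the lncRNAs against 369 and 3 by edgeR. The other fits to all 10 mice called 281 to 382 genes and 3 lncRNAs each, but with upper quartile factors Plet1os was lost (-0.57, adjusted p = 0.055) and Rian gained (0.66, adjusted p = 0.0481). Leaving out 1 mouse gave 47 to 828 genes and 0 to 5 lncRNAs: 107 genes without MLPKO 1, 828 without MLPKO 4, 47 without MLPKO 5, 142, 105, 100 and 50 without cRADΔ/Δ-MLPKO 2, 3, 4 and 5. AW011738 alone was called without MLPKO 1, 3 or 5 or cRADΔ/Δ-MLPKO 2, 3 or 4, and none without cRADΔ/Δ-MLPKO 5. The median log2 fold change of the 62 stayed between 0.0006 and 0.068.

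With the mouse number as a replicate block, 281 genes and 3 lncRNAs were called. Correlations of same-numbered mice were 0.025, 0.067, 0.097, 0.152 and -0.042. They were not set against differently numbered mice, so they cannot decide whether same-numbered mice shared a batch.

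Signs turned only for lncRNAs with a log2 fold change of at most 0.30 in size. Actc1dt was 0.00989 in limma and 0.00145 with the block; Firre 0.00587 in limma, 0.018 with upper quartile factors and 0.000198 with filterByExpr; Ppp4r1l-ps 0.00389 in limma, 0.024 with upper quartile factors, 0.00139 with no filter and 0.00392 with filterByExpr. Over the fits without 1 mouse the ranges were -0.38 to 0.0473 for Airn, -0.289 to 0.0266 for Snhg20, -0.195 to 0.00157 for Zbtb11os1, -0.0487 to 0.203 for Gas5, -0.0175 to 0.101 for Cirpil, -0.183 to 0.0558 for Neat1, -0.0148 to 0.0946 for Chaserr, -0.0347 to 0.0817 for Lppos, -0.0839 to 0.159 for Bvht, -0.176 to 0.0998 for Actc1dt, -0.0808 to 0.042 for Map2k3os, -0.146 to 0.0648 for Zfp862-ps, -0.149 to 0.204 for Kcnq1ot1, -0.102 to 0.102 for Firre and -0.124 to 0.0968 for Ppp4r1l-ps. The cause of these changes was not tested. The unknown strand setting limits the lncRNAs that share exon bases with the other strand.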
